A study of Mus musculus with 5 samples.

Results

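Cells of the osteoblast lineage were selected from single-cell RNA-Seq of mouse growth plates by the genes they expressed, and 280 such cells were found among 82516 cells kept of 84382 deposited. A cell was a member when Ibsp held at least 10 and Col1a1 at least 200 of every 10000 unique molecular identifiers (UMIs, 1 per captured transcript), Col2a1 held under 200, and Ptprc, the pan-leukocyte gene, had no UMI. Kept cells had 200 to 6000 detected genes and at most 10% mitochondrial UMIs. Levels of Ibsp, Col1a1, Col2a1 and Ptprc in these cells were therefore set by the selection. Every contrast of levels between these cells and other cells is given as a description, without a test. Only the effect of genotype was tested against that in other cells.

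The cells came from 5 littermate pups on a C57BL/6J background, 2 labelled wild type (WT) and 3 carrying a conditional Trpv4 p.R594H allele switched on by Col2a1-Cre. The authors state that the Cre line was first made on a B6SJLF1 background before 2 crosses to C57BL/6J, so SJL alleles may remain. The labels give tibial and femoral growth plate cartilage at postnatal day 5 (day 3 in the series design), digested with collagenase after removal of muscle. Trpv4 encodes a calcium-permeable channel, and the model was designed to be heterozygous for the activated channel in chondrocytes, since the Cre driver is selective for them. UMI counts do not show which cells carried the recombined allele. The labels call the cells chondrocytes, whereas the 280 cells described here lacked the levels of chondrocyte genes that this name implies.

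Osteoblasts are the bone-forming cells. They arise from perichondrial and other mesenchymal progenitors, and in part from hypertrophic chondrocytes, under the transcription factors RUNX2 and SP7 (osterix). They secrete type I collagen, mineralize it with the help of alkaline phosphatase (Alpl) and acidic phosphoproteins such as bone sialoprotein (Ibsp) and osteopontin (Spp1), and some become embedded as osteocytes, which express Dmp1, Phex and later Sost. At the growth plate they line the perichondrium and the front where cartilage is replaced by bone.

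Genes of the acidic phosphoproteins are neighbors in the genome. Dspp, Dmp1, Ibsp, Mepe and Spp1 lie on the plus strand within 270 kb of chromosome 5 (GRCm38, GENCODE M21), with Ibsp at chr5:104299171-104311469, Dmp1 at chr5:104202613-104214102 and Spp1 at chr5:104435118-104441050. Bglap (osteocalcin) lies at chr3:88383501-88384464 on the minus strand, beside its near-identical copies Bglap2 (chr3:88377736-88378699) and Bglap3 (chr3:88368616-88372743), so that reads may have been divided between the copies and their levels are uncertain. Mmp13 (collagenase 3) lies at chr9:7272514-7283331. Promoter windows of 250 bases upstream of the RefSeq start sites (GRCm38.p6) are shown for Bglap and Mmp13, genes of mature osteoblasts that only a subset of these cells expressed. Capitals mark 3 motifs. The core read by RUNX factors, TGTGGT, was searched on both strands and appears here as its reverse complement. The TATA box, TATAAA, was searched on the gene strand. The AP-1 element, TGANTCA, was searched on both strands, and no matches overlapped.
Bglap, minus strand, chr3:88384467-88384716: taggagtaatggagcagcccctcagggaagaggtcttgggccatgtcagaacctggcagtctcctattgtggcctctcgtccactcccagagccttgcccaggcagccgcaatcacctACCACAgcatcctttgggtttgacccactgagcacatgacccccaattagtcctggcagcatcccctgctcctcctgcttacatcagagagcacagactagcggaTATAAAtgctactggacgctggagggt
Mmp13, plus strand, chr9:7272264-7272513: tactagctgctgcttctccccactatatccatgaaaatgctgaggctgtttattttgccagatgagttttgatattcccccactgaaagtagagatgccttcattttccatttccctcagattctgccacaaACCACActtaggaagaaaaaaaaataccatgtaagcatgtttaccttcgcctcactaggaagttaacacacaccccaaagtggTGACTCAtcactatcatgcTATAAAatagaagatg
Both windows held the RUNX core and a TATA box, and the Mmp13 window also held the AP-1 element. Among 32851 promoter windows of the same length, 14.05% held the RUNX core, 7.59% the TATA box and 6.75% the AP-1 element. The Ibsp window held none of the 3 motifs. Of the 20 genes that ranked highest in these cells against all others, 13 matched a window, and the RUNX core was found in those of Bglap, Dkk1 and Dmp1. A match of letters is a description of the sequence and not evidence of binding.

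Depth differed with genotype in the growth plate as a whole, with a median of 9261 and 8521 UMIs per kept cell in WT pups 1 and 2 and of 6657, 6000 and 7016 in mutant pups 3, 4 and 5. The osteoblast lineage cells were deeper, with medians of 14475 and 16948 UMIs in WT pups and 14195, 11967 and 14258.5 in mutant pups. The lowest of them had 2788 UMIs. Xist RNA was found in mutant pups 3 and 4, and Ddx3y, of the Y chromosome, in WT pups 1 and 2 and mutant pup 5, so that genotype and sex cannot be told apart in a contrast without pup 5. No member barcode was shared with another library. Of the 280 cells, 160 came from mutant pup 3, so levels given as 1 value below were pooled over pups and rest mainly on that pup.

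The number of osteoblast lineage cells varied more within genotype than between genotypes. In WT pup 1, 12 of 15121 kept cells were members (0.0794%, 95% Wilson interval 0.0454 to 0.139), and in WT pup 2, 47 of 16561 were (0.284%, 0.214 to 0.377). In mutant pup 3, 160 of 19133 cells were members (0.836%, 0.717 to 0.976). Mutant pup 4 gave 43 of 17887 (0.240%, 0.179 to 0.324) and mutant pup 5 gave 18 of 13814 (0.130%, 0.0824 to 0.206). The intervals cover counting error only. The mean share was 0.182% ± 0.145 (SD, n = 2) in WT and 0.402% ± 0.380 (SD, n = 3) in mutant pups, and the difference of 0.221 percentage points had p = 0.7 (exact permutation test over the 10 ways to choose the pups, 2-sided, smallest possible p 0.1). Without mutant pup 3 the difference was 0.00377 percentage points. Among cells high in Col1a1 and low in Col2a1 without Ptprc, the share of members was 0.268% and 0.887% in WT and 2.17%, 0.659% and 0.614% in mutant pups (p = 0.6, exact permutation test), so the groups overlapped on that denominator too.

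**Figure D1:**
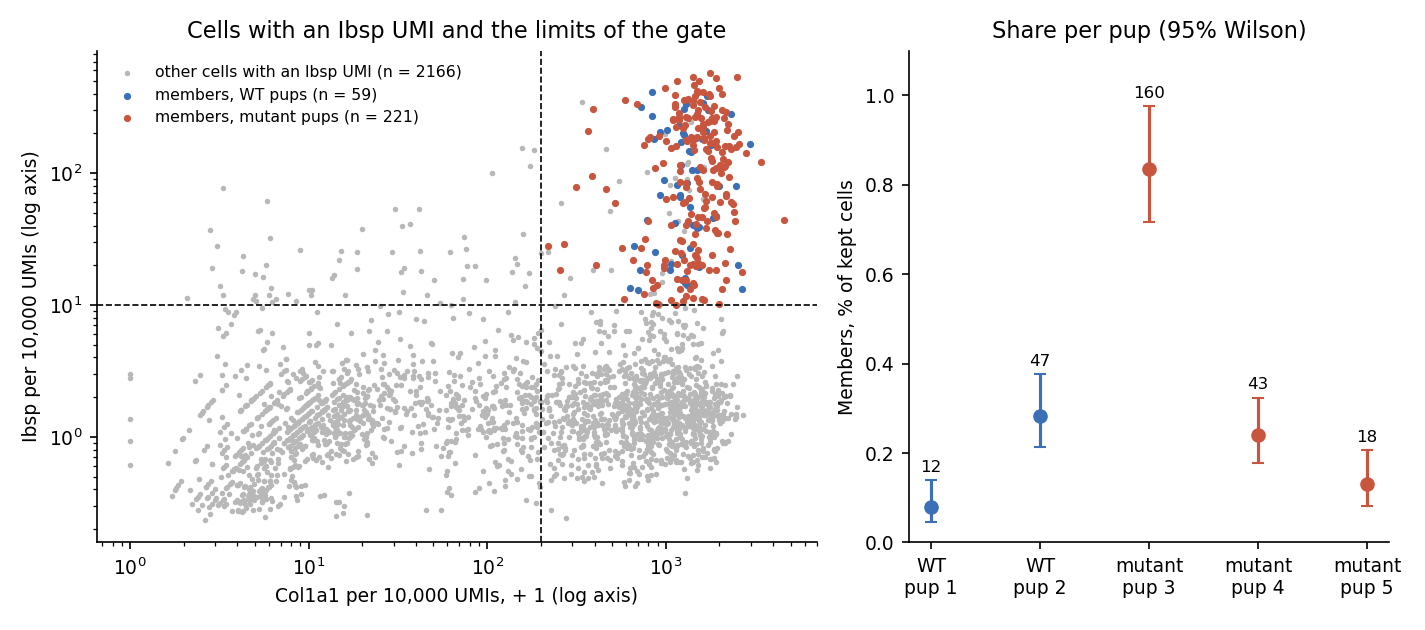
Left, each point is a kept cell with at least 1 Ibsp UMI, placed by its Col1a1 and Ibsp per 10000 UMIs (log axes), with the limits of the selection as dashed lines. Gray points in the upper right failed on Col2a1 or Ptprc. Right, members as a percentage of kept cells in each pup with 95% Wilson intervals and the number of cells above each. Mutant pup 3, at 0.836%, stands above the other 4 pups, which lie between 0.0794% and 0.284%.

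Within the selection, Ibsp ranged from 10.0 to 572 per 10000 UMIs with a median of 92.2, and 178 cells had at least 50. Few cells lay at the limit. The 11 cells with Ibsp of 10 to 12 per 10000 had Sp7 at 346 and Dmp1 at 24.1 CPM (UMIs summed over cells and scaled to a common total), and the 4 cells with 8 to 10, just outside, had 342 and 0 CPM. At the other limits, 1 cell lay inside and 4 outside within 160 to 240 Col1a1 per 10000, and 2 inside and 1 outside within the same range of Col2a1.

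Of the markers of the lineage, Sp7 was higher in these cells of each pup than in 3 other populations pooled over the same pups. Alpl was higher in each pup except WT pup 1, where it lay below hypertrophic chondrocytes, and Runx2 was about as high in hypertrophic chondrocytes. Those populations were 12663 perichondrial cells (Col1a1-high, Postn- and Prrx1-expressing, without Ibsp), 655 hypertrophic chondrocytes (Col10a1- and Col2a1-high) and 481 macrophages (C1qa- and Ptprc-expressing). Sp7 reached 308 and 409 CPM in WT pups and 384, 382 and 452 CPM in mutant pups, against 15.9 CPM in perichondrial cells and 140 CPM in hypertrophic chondrocytes. Runx2 was at 368, 258, 392, 271 and 364 CPM in pups 1 to 5, close to the 363 CPM of hypertrophic chondrocytes and above the 95.8 CPM of perichondrial cells. Alpl was at 471, 1090.2, 785, 1084 and 833 CPM, against 89.7 CPM in perichondrial cells and 604 CPM in hypertrophic chondrocytes. A UMI of Sp7 was detected in 93.9%, of Runx2 in 90.4% and of Alpl in 93.9% of the osteoblast lineage cells, while in macrophages, with per-pup median depths of 6554.5 to 10771 UMIs, the shares were 1.04%, 15.8% and 2.29%. With each cell thinned to 2000 UMIs, the shares were 43.9%, 46.1% and 75.4% in osteoblast lineage cells against 22.3%, 46.9% and 56.03% in hypertrophic chondrocytes and 0.416%, 4.57% and 1.04% in macrophages.

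Mmp13, the fifth marker, was unevenly expressed. It was at 1266 and 898 CPM in WT pups and at 901, 374 and 380 CPM in mutant pups, but a UMI was found in 36.4% of the cells, and 83 cells had at least 3 UMIs. Those 83 cells made up 66.7% and 19.1% of the members in WT pups and 37.5%, 6.98% and 16.7% in mutant pups. Perichondrial cells had 65.1 CPM of Mmp13, and hypertrophic chondrocytes, chosen for high Col2a1, had 119 CPM. In 34 Ibsp-expressing cells outside the selection, low in Col1a1 and Col2a1, it was at 14043.5 CPM. Within the osteoblast lineage cells the gene marked a subset and not the population.

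Other transcription factors of the lineage were also present. Dlx5 was at 92.6 CPM and Dlx3 at 57.2 CPM, and hypertrophic chondrocytes had 59.8 and 51.4 CPM of the same genes. Twist1, which restrains osteoblast maturation, was at 161 CPM in these cells and 180 CPM in perichondrial cells, while Twist2 and Msx1 were near the detection limit at 1.16 and 4.19 CPM.

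**Figure D2:**
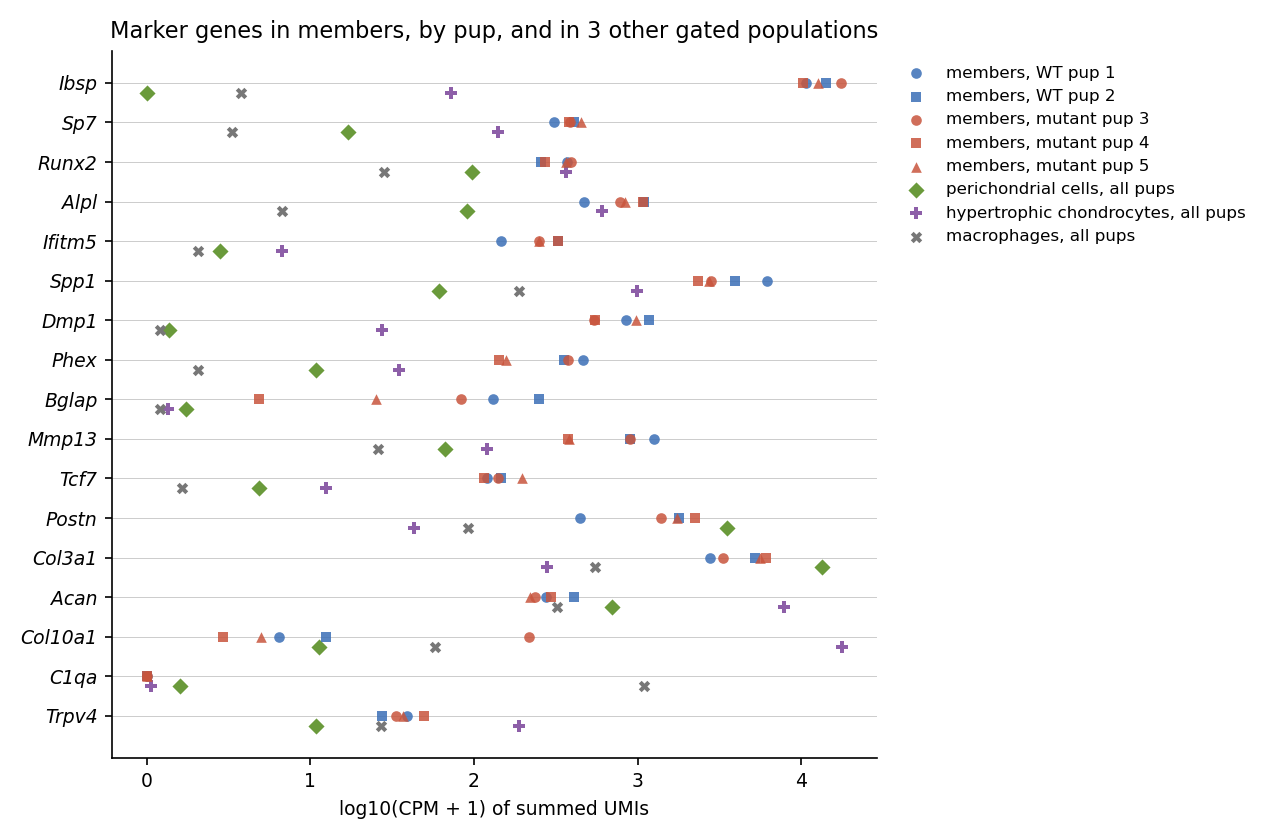
Levels of 17 genes as log10(CPM + 1) of summed UMIs in the osteoblast lineage cells of each pup (blue, WT; red, mutant) and, offset below, in perichondrial cells, hypertrophic chondrocytes and macrophages of all pups. Sp7, Ifitm5, Dmp1 and Tcf7 lie to the right of the other populations in all 5 pups, whereas Runx2 overlaps hypertrophic chondrocytes and C1qa is at 0 in the osteoblast lineage cells.

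The 20 genes with the highest ratio of pooled CPM in these cells to all other kept cells, at 50 CPM or more, included Ibsp, Ccdc194, Dkk1, Car3, Bglap, Slc36a2, Dmp1, Enpp6, Ifitm5, Chst13, Bglap2, Entpd3, Hoxb2, Phex, Col13a1, Cdh2, Insc and Hpgd. Ibsp itself belonged to the selection. The other genes followed from cells chosen for Ibsp and are named as a description. Without mutant pup 3 the pooled level fell under 50 CPM for Hoxb2 (from 98.0 to 40.7 CPM, with 0 in mutant pup 5), Ccdc194 (from 50.5 to 44.5 CPM) and Enpp6 (from 62.8 to 43.96 CPM). Car3, a carbonic anhydrase, was at 730 and 436 CPM in WT and 798, 167 and 112 CPM in mutant pups, against 1.19 CPM in the other cells. Its pooled level was 606 CPM, and 345 CPM without mutant pup 3. Slc36a2, a proline and glycine transporter, was at 128 against 0.345 CPM and was detected in 62.5%. Ifitm5, an osteoblast membrane protein whose mutation causes a brittle bone disease in humans, was at 146 and 327 CPM in WT and 249, 324 and 248 CPM in mutant pups, against 1.81 CPM in perichondrial cells. Cdh2, encoding N-cadherin, was at 401 CPM and was detected in 87.5% of the cells. Bglap and Bglap2 ranked high through few cells, since 43.4% of all Bglap UMIs and 36.5% of all Bglap2 UMIs came from 1 cell each.

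Genes of the bone matrix made up 25.5% to 30.0% of all UMIs in the 5 pups. Without Col1a1, Ibsp and Postn, which chose these or the perichondrial cells, the share was 11.9% to 13.1%, against 9.45% in perichondrial cells and 1.697% in hypertrophic chondrocytes. Col1a1, limited below by the selection, had 123549 CPM or more in each pup. The list also held Col1a2, at 84948 CPM here and 63465 CPM in perichondrial cells, and Sparc (osteonectin), at 26070.2 and 17012 CPM. The mineralization list took 1.57% to 2.31% of UMIs here, most of it Ibsp, which the selection required here and barred from the perichondrial cells. Without Ibsp the list took 0.546% to 0.867% here, 0.04997% in perichondrial cells and 0.352% in hypertrophic chondrocytes. In that list Smpd3, a sphingomyelinase needed for bone mineralization, was at 714 CPM against 8.86 CPM, but hypertrophic chondrocytes had 1634 CPM. Enpp1, which produces the mineralization inhibitor pyrophosphate, went the other way, at 41.2 CPM here and 176 CPM in perichondrial cells.

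The machinery that folds and crosslinks collagen took 1.12% to 1.62% of UMIs in these cells and 0.856% in perichondrial cells. Serpinh1, the collagen chaperone HSP47, was at 6394 CPM against 2698 CPM in perichondrial cells. Lox, the crosslinking enzyme, was at 1779 against 809 CPM, and Creb3l1, a transcription factor that drives collagen secretion in osteoblasts, was at 941 against 385 CPM. Plod2, which hydroxylates telopeptide lysines, was highest in hypertrophic chondrocytes, at 1478 CPM, with 530.1 CPM in osteoblast lineage cells.

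Signals that act on bone were represented by ligands, receptors and targets. Of the Wnt pathway, Tcf7, a transcription factor of canonical Wnt signaling, was at 119 and 145 CPM in WT and 140.04, 114 and 196 CPM in mutant pups, against 3.82 CPM in perichondrial and 11.5 CPM in hypertrophic cells, while Lef1 was at 0 to 10.35 and Axin2 at 0 to 6.46 CPM in single pups. The Wnt antagonist Dkk1 was at 114 and 66.7 CPM in WT and 192, 50.4 and 64.1 CPM in mutant pups, against 0.171 CPM in perichondrial and 0.933 CPM in hypertrophic cells. Its pooled level was 139 CPM, and 66.5 CPM without mutant pup 3. Notum, another Wnt antagonist, was at 47.9 against 3.21 CPM in perichondrial cells. Of the BMP ligands, Bmp3 was at 128 CPM against 17.3 CPM in perichondrial cells, and Bmp8a was at 31.4 against 0.428 CPM. Pth1r, the receptor for parathyroid hormone, was at 262 CPM and was detected in 88.6% of the cells, against 19.7 CPM in perichondrial cells and 1272 CPM in hypertrophic chondrocytes. Tnfsf11 (RANKL), which drives osteoclast formation, was at 18.1 CPM, and its decoy receptor Tnfrsf11b (osteoprotegerin) was at 77.5 CPM. Trpv4, the gene of the targeted channel, was at 37.9 and 26.5 CPM in WT and 32.3, 48.5 and 36.0 CPM in mutant pups, against 9.88 CPM in perichondrial cells and 188 CPM in hypertrophic chondrocytes. These counts do not separate the WT from the mutant transcript.

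Markers of other cells were scarce, with exceptions. C1qa, C1qb, Mpeg1, Dcstamp, Ocstamp, Sox10 and Myod1 were at 0 in all 280 cells. The 4 macrophage markers took 0 to 0.000345% of UMIs per pup and the 4 endothelial markers 0 to 0.00105%. Hemoglobin genes took 0.00108% and 0.00299% in WT pups and 0.0387%, 0.00834% and 0.00641% in mutant pups, and 4 members, of mutant pups, were rich in them. The chondrocyte list of 16 genes took 0.474% to 0.928% here. Without Col2a1, on which the selections of these cells and of hypertrophic chondrocytes rested, it took 0.406% to 0.752%, against 8.44% in hypertrophic chondrocytes and 0.488% in perichondrial cells, with Acan at 278 CPM here and 7851 and 696 CPM in those populations. The osteoclast list took 0.0243% to 0.0633% of UMIs, mostly through Ctsk except in mutant pup 5, where Mmp9 was higher (360 against 272 CPM). Perichondrial cells also expressed Ctsk, at 503 CPM. Mmp9 was the other exception, with 443 UMIs in 17 cells, of which 214 were in 1 cell. Immediate early and dissociation-stress genes, which enzymatic digestion is known to induce, took 2.35% and 1.31% of UMIs in WT and 2.13%, 1.007% and 2.12% in mutant pups. Their part in the other results was not tested.

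The osteoblast lineage cells were not uniform, and genes shared with the perichondrium were lower, by group medians, where Ibsp was higher. Placed in order of rising Ibsp in 20 groups of 14 cells, the 126 cells of the 9 lowest groups (Ibsp 10.0 to 75.7 per 10000) had group medians of 35.9 to 113 Col3a1, 9.81 to 36.1 Postn and 5.52 to 8.78 Lum per 10000 UMIs. The 154 cells of the 11 highest groups (Ibsp from 78.1) had group medians of 0.564 to 12.9 Col3a1, 0 to 1.17 Postn and 0.793 to 3.31 Lum. The medians of the lower and higher groups did not overlap, although single cells with high and with low Postn occurred on both sides. The Col3a1 median went from 35.9 in the ninth group to 1.13 in the tenth. Lum encodes lumican, and Postn periostin, a matrix protein of periosteum and perichondrium. These groups were drawn after the values were seen, and Ibsp shares a library and a depth with the other genes.

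**Figure D3:**
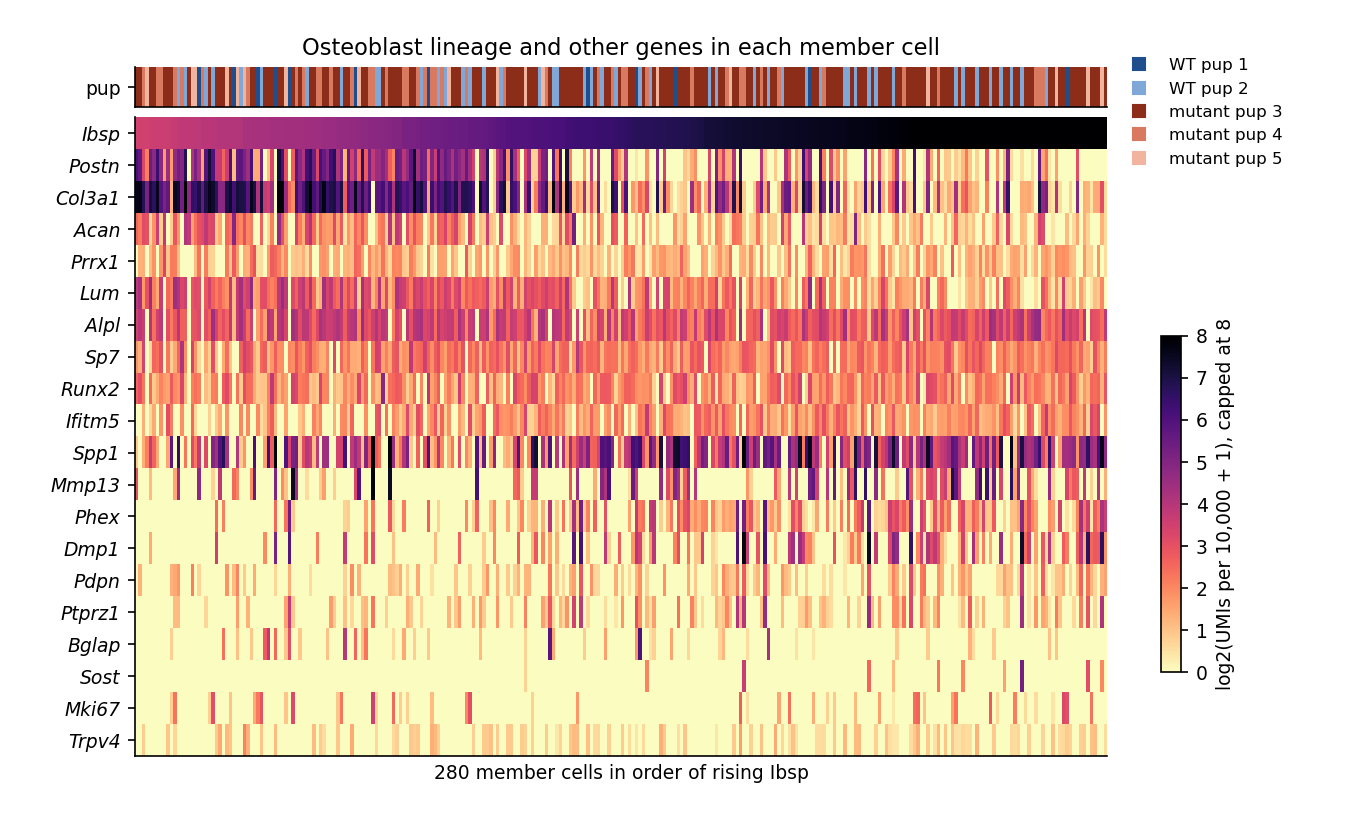
Each column is 1 of the 280 cells, ordered by rising Ibsp, and color gives log2(UMIs per 10000 + 1), capped at 8, with the pup of each cell in the upper bar. Postn, Col3a1, Acan and Lum are mostly darker in the left part of the plot, Phex and Dmp1 are darker in the right part, and Sp7 and Runx2 are found across the plot.

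With the cells divided at Ibsp of 100 per 10000, Postn, Col3a1 and Acan were lower above the limit in each pup, and Lum, at 733 and 267 CPM, in 4 of 5. Postn was at 2877 CPM in the 143 cells under 100 and 490.05 CPM in the 137 cells at or above it (median depths 12977 and 16528 UMIs), and it was lower above the limit in 5 of 5 pups. Col3a1, at 7559.7 and 1433 CPM, and Acan, at 423 and 162 CPM, were also lower in 5 of 5 pups. In the other direction, Phex, an endopeptidase of osteoblasts and osteocytes, was at 151 and 479 CPM and Car3 at 366 and 799 CPM, each higher in 5 of 5 pups. Dmp1, at 268 and 1065 CPM, and Spp1, at 2291 and 3808 CPM, were higher in 4 of 5 pups. Sp7, Runx2 and Alpl had no common direction across pups.

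Dmp1, an early gene of the osteocyte program, was carried by 80 cells with at least 3 UMIs. They were 6 of 12 and 12 of 47 members in WT and 52 of 160, 6 of 43 and 4 of 18 in mutant pups, and 26 cells lay near that limit, with 2 to 4 UMIs. In these cells the summed level of Spp1 was 5759 CPM against 1776 CPM in the other 200 cells, that of Phex 747 against 119 CPM, and that of Pdpn, the membrane protein of early osteocytes, 147 against 51.9 CPM, each higher in 5 of 5 pups. Dkk1 was also higher in 5 of 5 pups, at 260 against 76.2 CPM. Postn (372 against 2161 CPM) and Alpl (687 against 968 CPM) were lower in 5 of 5 pups. The cells with Dmp1 were deeper, with a median of 18133.5 UMIs against 13183. Thinned to 2000 UMIs, a UMI of Phex was found in 52.5% against 14.5% of cells, of Spp1 in 95% against 58.5%, and of Postn in 22.5% against 59.5%. The shares were 31.25% against 7.5% for Dkk1 and 58.75% against 82.5% for Alpl. The groups themselves were set on unthinned Dmp1 counts, and the shares were not divided by pup.

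Sost, which encodes the Wnt inhibitor sclerostin and is expressed by mature osteocytes, had at least 3 UMIs in 9 cells, 4 of WT pup 2, 1 of mutant pup 3, 3 of mutant pup 4 and 1 of mutant pup 5. Of these 9 cells, 8 had at least 3 UMIs of Pdpn, 7 of Dmp1 and 6 of Phex, and 0 of Mmp13. Over all members the shares at 3 UMIs were 15.4% for Pdpn, 28.6% for Dmp1, 33.9% for Phex and 29.6% for Mmp13. No cell had 3 UMIs of Fgf23. Bglap with at least 3 UMIs was found in 19 cells, 4 of WT pup 1, 3 of WT pup 2 and 12 of mutant pup 3, while in mutant pups 4 and 5 no cell reached it. The 83 cells with Mmp13 overlapped those with Dmp1 in 34 cells, which was 41.0% of the former and 42.5% of the latter. Of all members, 28.6% had Dmp1 and 29.6% had Mmp13 at 3 UMIs. Thinned to 2000 UMIs, Mmp13 was found in 33.75% of cells with Dmp1 and 22.5% of the others. Its level was higher in cells with Dmp1 in 3 of 5 pups. Dividing cells were few, with 24 cells at 3 or more UMIs of Mki67, a gene of the cell cycle, and 0 of these in mutant pup 5.

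To ask which genes differed between genotypes in the osteoblast lineage, UMIs were summed over the cells of each pup and tested across all genes with edgeR. No gene of 5760 tested passed an adjusted p of 0.05 (percent called 0), with 171 genes at an unadjusted p under 0.05, and DESeq2 called 0 genes, with 73. The smallest adjusted p was 0.94 (edgeR quasi-likelihood test, Benjamini-Hochberg). Each sum rested on 12 to 160 cells, and the absence of a call does not show that levels were equal.

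The markers did not pass either. On the log2 scale of TMM-normalized levels, mutant against WT, Sp7 differed by 0.21 (SE 0.27), Runx2 by 0.23 (SE 0.28), Alpl by 0.23 (SE 0.34) and Mmp13 by -0.86 (SE 0.39), with adjusted p = 0.998 for each in edgeR. The groups overlapped for all 4 genes. Ibsp, limited by the selection, differed by 0.17 (SE 0.25). Trpv4 differed by 0.41 (SE 0.40), with the groups overlapping.

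The 10 genes with the smallest unadjusted p at 20 CPM or more had all mutant pups on one side of both WT pups. Of these, Mgp, a vitamin K-dependent inhibitor of calcification, was at 59.5 and 49.5 CPM in WT and 163, 114 and 252 CPM in mutant pups, a log2 difference of 1.75 (SE 0.36, adjusted p = 0.94, edgeR). All mutant pups lay above both WT pups. Spp1 was at 6200 and 3941 CPM in WT and 2825, 2333 and 2751 CPM in mutant pups, a log2 difference of -0.87 (SE 0.24, adjusted p = 0.998, edgeR). Omd, which encodes osteomodulin, a keratan sulfate proteoglycan of mineralized matrix, was at 103 and 115 CPM in WT and 53.7, 44.6 and 40.0 CPM in mutant pups, a log2 difference of -1.14 (SE 0.30). For Spp1 and Omd all mutant pups lay below both WT pups. The other 7 all had an adjusted p of 0.998 (edgeR). Hspb1 (1.22), Tcim (1.66), Birc3 (1.98) and Anln (-1.59) are given as log2 differences. Col8a1, Thy1 and Hbb-bs had 3 and 1, 1 and 1, and 0 and 4 UMIs in the WT pups, too few for a size. Without WT pup 1 Col8a1 passed the test (adjusted p = 0.023, edgeR), with 1 UMI in the lone WT pup, which was assumed to vary like the mutant pups. Across all genes tested, 586 (10.2%) had all mutant pups above both WT pups and 598 (10.4%) had them below.

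**Figure D4:**
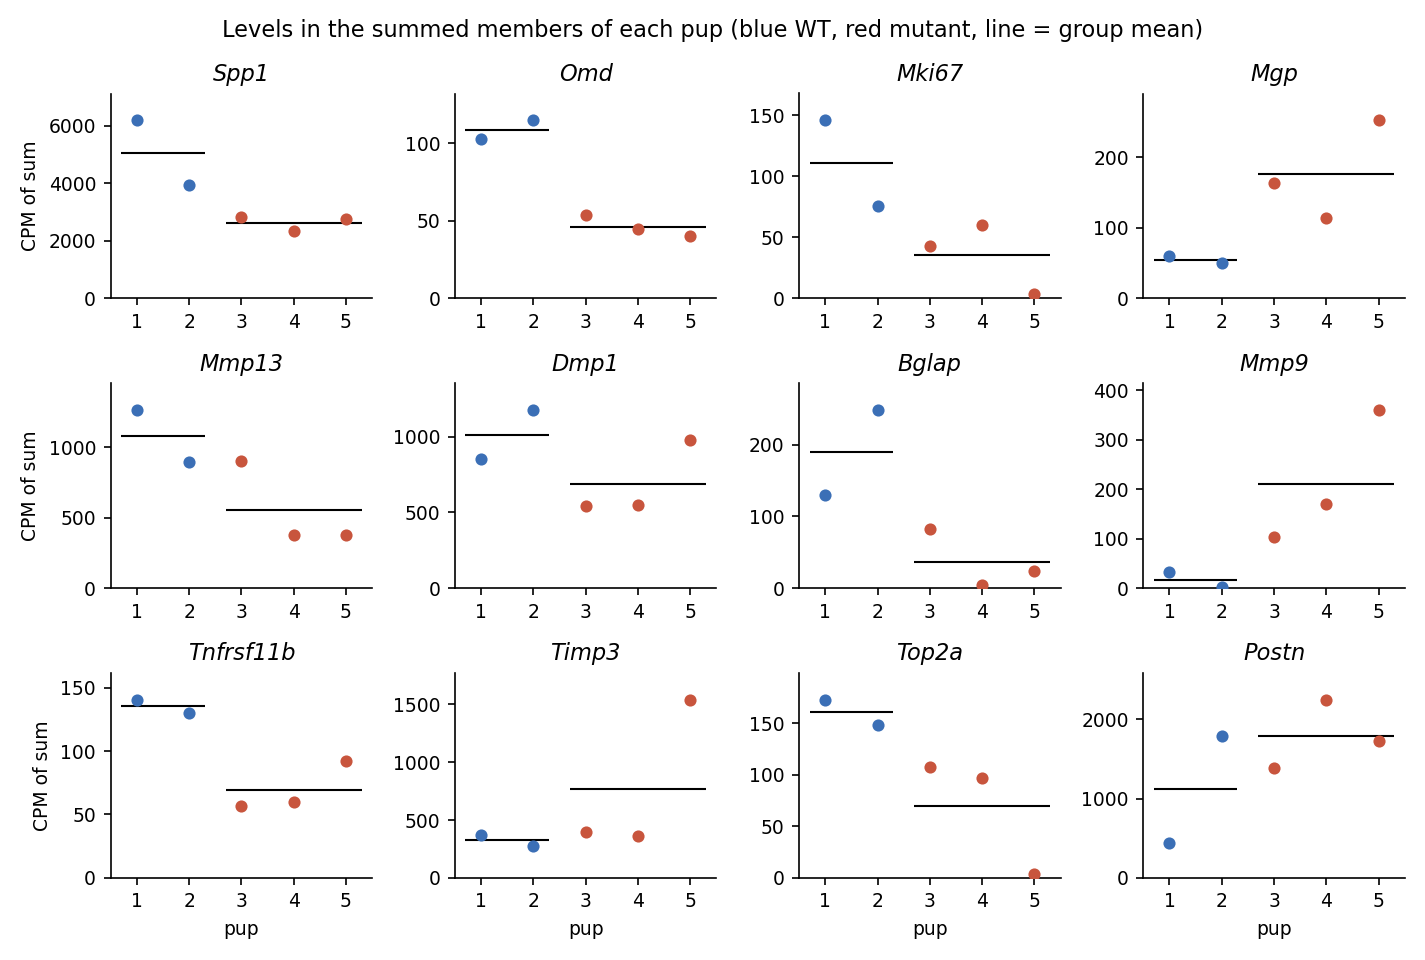
CPM of the summed osteoblast lineage cells in each pup for 12 genes, with WT pups 1 and 2 in blue, mutant pups 3 to 5 in red and the mean of each group as a line (each axis starts at 0). Spp1, Omd, Bglap, Tnfrsf11b, Mki67 and Top2a have every mutant pup below both WT pups. This rests on 1 cell of WT pup 2 for Bglap, on 1 cell of WT pup 2 for Tnfrsf11b and on 1 cell of WT pup 1 for Mki67. Mgp and Mmp9 have every mutant pup above, and the other 4 genes overlap. For Mmp9 the value of mutant pup 5 rests on 1 cell and that of mutant pup 4 on 2 cells.

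Gene lists were set against the same background, in which the median log2 difference was 0.01 over all 5760 genes and 10.2% and 10.4% of genes had groups apart. Of the 20 cell cycle genes 13 were tested. None passed the test, 11 lay below 0, the median was -0.73, and 5 had all mutant pups below both WT pups (Tpx2, Mki67, Mcm6, Rrm1 and Top2a). Mki67 was at 146 and 75.9 CPM in WT and 43.2, 60.1 and 4.004 CPM in mutant pups. Top2a was at 173 and 148 CPM in WT and 107, 97.0 and 4.004 CPM in mutant pups. The lowest value of both was that of mutant pup 5, with 18 cells. WT pup 1, with 12 cells, had 27 UMIs of Mki67, 18 of them in 1 cell, and 32 UMIs of Top2a. Without that cell Mki67 in WT pup 1 would lie below mutant pup 4.

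Of the 16 chondrocyte genes, all tested and 0 called, 14 lay below 0, with a median of -0.52, and 1 (Hapln1) had the groups apart. Without Col2a1, which the selection capped, 13 of 15 lay below 0 and the median was -0.45. Of the collagen folding and crosslinking genes, 19 of 20 were tested, 0 were called, 16 lay above 0 and the median was 0.21. Serpinh1 was at 4636 and 6217 CPM in WT and 6712, 6524 and 4885 CPM in mutant pups, which overlapped. The bone matrix list had 21 of 24 genes tested, 0 called, 11 above and 10 below 0, with a median of 0.16. Without Col1a1 and Ibsp, which chose the cells, 9 of 19 lay above 0 and the median was -0.01. In the list Bglap was at 130 and 248 CPM in WT and 82.3, 3.88 and 24.0 CPM in mutant pups. In WT pup 2, 1 cell held 196 of the 216 Bglap UMIs, and without it that pup was at 23.8 CPM, within the range of the mutant pups.

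The osteocyte list had 8 of 11 genes tested, 0 called and 4 on each side of 0. Its leading genes overlapped between genotypes, with Dmp1 at 849 and 1175 CPM in WT and 544, 547 and 977 CPM in mutant pups, and Phex at 460 and 352 against 374, 142 and 156 CPM. The osteocyte median was -0.14. Of the osteoblast transcription factors 10 of 13 were tested, with 0 called, 5 on each side and a median of 0.04. Of the mineralization list 10 of 15 were tested, with 0 called, 6 above 0 and a median of 0.12 (5 of 9 and 0.06 without Ibsp).

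Of the signaling lists, none had a gene that passed. The Wnt list had 12 of 15 tested genes above 0, with a median of 0.17 and 1 gene apart (Ctnnb1, β-catenin, at 1104 and 875 CPM in WT and 1083, 1149.97 and 1249 CPM in mutant pups before normalization). The BMP and hedgehog list had 13 of 19 above 0, with a median of 0.22. In it Id2, Bmpr2, Smad5 and Bmp7 had all mutant pups above both WT pups and Bmp8a had them below. The calcium entry and calcineurin list had 11 of 15 above 0, with a median of 0.21. Rcan1, an inhibitor of calcineurin, was at 92.0 and 101 CPM in WT and 100.5, 145 and 176 CPM in mutant pups, a log2 difference of 0.52 (SE 0.31).

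The osteoclast support list, genes by which osteoblasts direct osteoclasts and matrix removal, had 12 of 14 genes tested, 0 called and 7 above 0, with a median of 0.21. After normalization 3 of the 12 (Mmp9, Tnfsf11 and Timp3) had all mutant pups above both WT pups and 1 (Tnfrsf11b) had them below. Tnfrsf11b was at 141 and 130 CPM in WT and 56.5, 60.1 and 92.1 CPM in mutant pups, a log2 difference of -0.97 (SE 0.30, adjusted p = 0.998, edgeR). In WT pup 2, 1 cell held 59 of the 333 Tnfrsf11b UMIs of all members. Without that cell WT pup 2 would lie below mutant pup 5. Tnfsf11, the opponent of Tnfrsf11b, was at 5.41 and 13.8 CPM in WT and 17.8, 27.1 and 28.0 CPM in mutant pups, a log2 difference of 0.96 (SE 0.56). In mutant pup 4, 1 cell held 10 of the 78 Tnfsf11 UMIs of all members. Without that cell mutant pup 4 would lie below WT pup 2. Mmp9, a gelatinase, was at 32.5 and 2.30 CPM in WT and 104, 171 and 360.4 CPM in mutant pups. Its UMIs were in 1 cell of each WT pup and in 12, 2 and 1 cells of mutant pups 3, 4 and 5. Without that 1 cell mutant pup 5 would have no Mmp9 UMI and would lie below both WT pups. Timp3, at 373 and 276 CPM in WT and 398, 363 and 1542 CPM in mutant pups, was highest in mutant pup 5, and before normalization the other pups overlapped.

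Lists of other cell types gave no called gene either. Of those with 3 or more genes tested, the perichondrium list had 4 of 5 genes above 0 (median 0.34), the tendon list 3 of 4 (median 0.86, Mkx apart) and the hypertrophic list 3 of 6 (median -0.06). The erythroid list had 3 of 3 tested genes above 0 and apart, in the direction of the hemoglobin shares given before. Between 88.6% and 93.0% of the UMIs of each hemoglobin gene were in 1 cell of mutant pup 3, and the WT counts were too few for a size. The immediate early list had 11 of 18 above 0, with a median of 0.08 and 2 genes apart (Dnajb1 and Dusp1).

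A further test asked whether the effect of genotype in osteoblast lineage cells differed from that in perichondrial cells of the same pups, with the pup as a block. Of 12453 genes, 21 passed an adjusted p of 0.05 (0.169%), with the difference above 0 for 14 and below 0 for 7, and in perichondrial cells alone 0 of 14255 genes passed. Since a sum over 12 to 160 cells can rest on 1 cell, the test was repeated without the member with the most UMIs of each gene. Of the 21 genes, 9 had too few counts for the members' own test and entered this one through their counts in perichondrial cells, so their differences are no usable test in osteoblast lineage cells. Without the top cell 6 of the 21 passed, including Spp1 and Omd, but Il6, Steap4 and Dpt among them belonged to the 9.

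Spp1 gave the steadiest of these differences. In perichondrial cells it was at 26.8 and 32.3 CPM in WT and 94.1, 51.1 and 123 CPM in mutant pups, all mutant pups being above both WT pups, the reverse of its order in osteoblast lineage cells. Its difference of log2 fold changes was -2.33 (SE 0.35, adjusted p = 2.26e-07, edgeR) and without the top cell -2.37 (adjusted p = 1.13e-07). It passed with each pup left out in turn, between -2.66 and -2.05. The fold change in perichondrial cells was itself 1.65 on the log2 scale (SE 0.36, adjusted p = 0.81, edgeR), and Spp1 had a UMI in 230 of the 280 osteoblast lineage cells. With each cell thinned to 2000 UMIs, Spp1 was found in 3.19% of perichondrial cells and 67.9% of osteoblast lineage cells. The top cell was left out of the osteoblast lineage sums only. Whether the perichondrial side rested on few cells was not tested. The highest perichondrial value, 123 CPM, lay far below the lowest in osteoblast lineage cells, 2333 CPM. With the members divided by Dmp1, the genotypes overlapped. In cells with at least 3 Dmp1 UMIs, Spp1 was at 9819 and 8529 CPM in WT and 3979, 9205 and 9781 CPM in mutant pups. In the other cells it was at 1989 and 1770 CPM in WT and 2112, 994 and 803 CPM in mutant pups. The part of cells with Dmp1 in the difference was not tested.

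Omd had the same sign. Its level in perichondrial cells was 16.5 and 20.9 CPM in WT and 29.0, 24.7 and 23.5 CPM in mutant pups, and the difference was -1.60 (SE 0.40, adjusted p = 0.032, edgeR). It passed without WT pup 1 (-1.67) but not without WT pup 2 (-1.45) or mutant pup 3 (-1.78), 4 (-1.64) or 5 (-1.55).

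Il6, Steap4 and Dpt were sparse in osteoblast lineage cells and failed the filter on low counts there, so only their counts are described. Il6, a cytokine, had 116 UMIs in 23 members, with 6 of the UMIs in WT pups. Steap4, a metalloreductase, had 97 UMIs in 20 members, with 1 of the UMIs in WT pups. Dpt, which encodes dermatopontin, a matrix protein of fibroblasts, had 32 UMIs in 10 members and 0 in WT pups. In perichondrial cells Dpt was at 191 and 322 CPM in WT and 221, 121 and 127 CPM in mutant pups. Mutant pup 3 held 103 of the Il6 and 92 of the Steap4 UMIs.

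**Figure D5:**
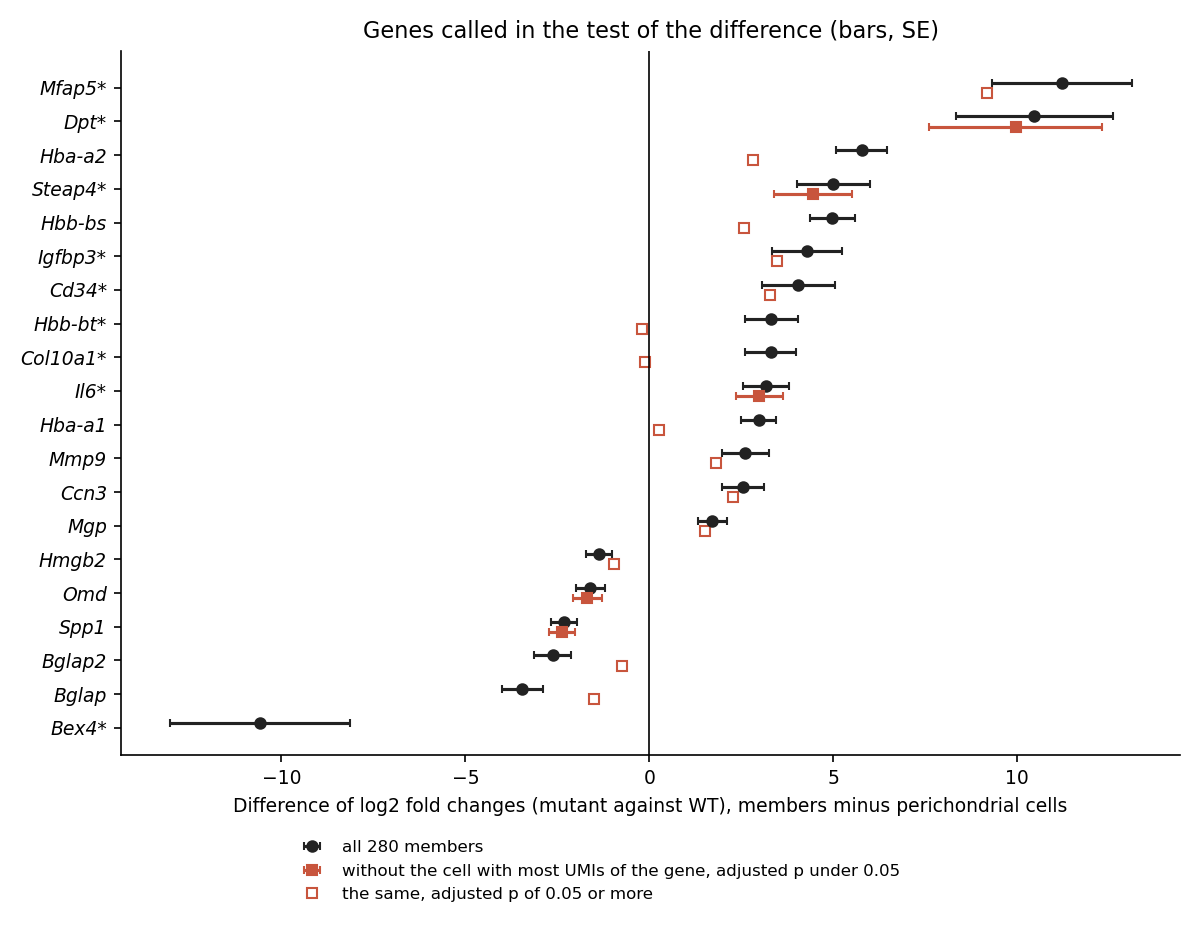
Difference of log2 fold changes (mutant against WT) between osteoblast lineage and perichondrial cells for 20 of the 21 genes that passed, for all 280 members (black, bars SE) and without the member with the most UMIs of the gene (red squares, filled with SE bars where the adjusted p stayed under 0.05). Spp1 and Omd lie at nearly the same place in both, whereas Hbb-bt and Col10a1 move to the other side of 0. Bex4 has no second value. An asterisk marks the 9 genes that failed the filter on low counts in the members.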

How the data were processed

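The authors captured 1 BD Rhapsody library per pup and deposited UMI counts per gene and cell, not normalized. The submitters' processing notes name mm10. The aligner and annotation are not given in the sources used here. The summed files held 117746735 to 183322632 UMIs per pup over 29818 genes. Cells were filtered and selected as stated in the report. Doublets were not removed, since the Scrublet threshold (scanpy 1.11.5) marked 0 cells in each pup. UMIs of the members were summed per pup and tested with edgeR 4.0.16 (filterByExpr, TMM, robust quasi-likelihood fit, Benjamini-Hochberg at 0.05) and, as an alternative, DESeq2 1.42.0, in R 4.3.3. Standard errors belong to log2 differences. CPM values are of raw sums, whereas fold changes and statements that groups were apart use TMM-normalized levels. Precision is limited by the 12 to 160 cells of a pup. The labels name no batch. Of the cell barcodes, 55 occurred in more than 1 pup. P-values measure the spread between 5 littermates. Perichondrial cells had Col1a1 at 200 or more, Col2a1 under 200 and Postn at 10 or more per 10000, at least 1 Prrx1 UMI, and 0 Ibsp and Ptprc UMIs. Hypertrophic chondrocytes had Col10a1 at 20 and Col2a1 at 200 or more per 10000 without Ptprc, and macrophages had C1qa at 5 or more with Ptprc.

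The members and gene lists were chosen with earlier results of these data known, and 2 list genes are missing from the files used here. Named genes were the markers, up to 6 leading genes of each list, the 10 genes with the smallest p at 20 CPM or more, the 20 leading genes by ratio, Trpv4, Xist and Ddx3y. Other genes named in the report (such as Tnfrsf11b, Tnfsf11, Notum, Bmp8a, Sost, Pdpn, Lef1 and Axin2), the divisions by Ibsp and the subsets by 3 UMIs were chosen after their values were seen. Results of some genes are not reported here.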

Additional observations from a re-analysis of the deposited data

Results flagged for a closer look

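Of 21 genes, the 20 below were singled out because the effect of genotype differed between osteoblast lineage and perichondrial cells in the test of that difference (edgeR, adjusted p under 0.05). Values are differences of log2 fold changes, osteoblast lineage minus perichondrial cells.

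Genes of the osteoblast lineage cells lay below 0: Spp1 (-2.33), Omd (-1.60), Bglap (-3.45) and Bglap2 (-2.63). Bglap and Bglap2 did not pass without 1 cell of WT pup 2 that held 196 of 452 Bglap UMIs and 129 of 353 Bglap2 UMIs, and their differences were then -1.51 and -0.74.

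Hemoglobin genes lay above 0: Hba-a2 (5.77), Hbb-bs (4.97), Hba-a1 (2.98) and Hbb-bt (3.31). Between 88.6% and 93.0% of the UMIs of each were in 1 cell of mutant pup 3, and none of the 4 passed without it. Col10a1 (3.30), the collagen of hypertrophic chondrocytes, had 508 of 545 UMIs in 1 cell of mutant pup 3 and did not pass without it.

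Mfap5 (11.22), Dpt (10.46), Steap4 (5.00), Igfbp3 (4.29), Cd34 (4.05) and Il6 (3.17) lay above 0. All 6, and Hbb-bt, Col10a1 and Bex4, failed the filter on low counts in osteoblast lineage cells and entered the test through perichondrial counts, so their values are no usable test in the members. Ccn3 (2.55) and Mgp (1.71) passed that filter. Without their top cell the differences were 2.27 and 1.51, close to before, with adjusted p-values of 0.067 and 0.071 (edgeR). The call of Ccn3 was also lost without mutant pup 5 (2.07), and its difference was 1.75 without WT pup 2. That of Mgp was lost without mutant pup 3 (1.63) or mutant pup 5 (1.52). Ccn3 had 3 and 4 UMIs in the WT pups, and its 21 UMIs in mutant pup 5 were in 2 cells. Mfap5 had 0 UMIs in WT members and 56 of 69 UMIs in 1 cell, so its size is not a measure.

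Of the remaining genes, Mmp9 (2.60) had 214 of 443 UMIs in 1 cell. Hmgb2 (-1.36), a chromatin protein of dividing cells, was at 644 and 239 CPM in WT and 180.4, 144 and 84.1 CPM in mutant members. Its call was lost without the top cell (-0.97, adjusted p = 0.68, edgeR), at Ibsp limit 20 (adjusted p = 0.56, edgeR), and without WT pup 1 (-1.03), mutant pup 4 (-1.50) or mutant pup 5 (-1.10). Bex4 (-10.59) had 8 UMIs in 2 cells and could not be tested without the first of them.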

How the results depend on the processing

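The difference in the share of cells stayed above 0 under every alternative run. It lay between 0.187 (Ibsp limit 20) and 0.257 (Ibsp limit 5) percentage points of kept cells, and between 0.00377 and 0.357 with 1 pup left out. The exact permutation test could not reach p under 0.05 with these pups, so the absence of a call says nothing of stability. With sex chromosome RNA as a covariate, the effect of genotype rested on mutant pup 5 alone, since mutant pups 3 and 4 made up the Xist class. In that fit the log2 difference was -5.24 for Top2a, which had 1 UMI in mutant pup 5, and 2.29 for Timp3. The calls of that fit are left out of the counts below. The count of genes called in the members was 0 under 10 alternatives, 13 with no filter on low counts, and 0 to 3 with 1 mutant pup left out. It was 2 without WT pup 1 (Igfbp5, Col8a1), 2 without WT pup 2 (Gas1, Grem1) and 3 without mutant pup 5 (Xist, Ddx3y, Eif2s3y). The 13 were Mmp9, Hbb-bs, Igfbp3, Hba-a2, Mgp, Hmgb2, Thy1, Lmo2, Col8a1, Steap4, Ikzf1, Mfap5 and Ccn3. The count of differences from perichondrial cells was 17 to 21 under 4 alternatives. At Ibsp limit 20 it was 19, but only 14 of the 21 were among them. Ccn3 (2.56), Mgp (1.62), Col10a1 (3.54), Mmp9 (2.53), Cd34 (3.96) and Hmgb2 (-1.21) lost their call there with the difference little moved, and Bex4 had no value. The count was 14 to 74 with 1 pup left out, with 74 without WT pup 2, 35 without WT pup 1 and 14 without mutant pup 3. Reversed values were Hba-a1 (-2.17) and Hbb-bt (-2.34) without the hemoglobin-rich members, Hbb-bt (-0.192) and Col10a1 (-0.128) without the top cell, and Col10a1 (-0.106) without mutant pup 3 (up to 4.38 with another pup left out). The cause was not tested beyond these alternatives. Alternatives without the top cell, without hemoglobin-rich members or at Ibsp limit 20 for the differences, without the top 5% of Scrublet scores, on the Col1a1-high denominator, pooled levels without mutant pup 3, and the mineralization list without Ibsp and other lists without the genes that chose the cells were chosen after seeing the data. The automatic Scrublet alternative removed 0 cells and was not run, and the limit of 3 Ibsp UMIs removed 0 members and says nothing of stability. Osteoblast lineage and perichondrial cells were compared within pups. Between genotypes, no paired analysis was possible because the labels number the pups once across both genotypes. WT pup 1, with 12 cells, limits the depth of the WT group.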

Other observations

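Ibsp at 10 or more per 10000 UMIs was also found in 101 cells outside the selection. Of these, 69 had Col1a1 under 200 per 10000. In the 35 of them with Col2a1 at 200 or more, Col10a1 was at 50503 CPM, Ihh at 255 CPM and Spp1 at 8863 CPM, with Bglap at 0. In the 34 with Col2a1 under 200, Mmp13 was at 14043.5 CPM, Spp1 at 14267 CPM, Col10a1 at 9471 CPM and Col2a1 at 1514 CPM. Mmp13 was thus higher in these 34 cells than in the 280 osteoblast lineage cells (823 CPM), and Dmp1 was lower (78.2 against 710.2 CPM). Another 27 of the 101 cells had both Col1a1 and Col2a1 at 200 or more. In these Ibsp was at 8259 CPM, Col1a1 at 95037 CPM, Sp7 at 214 CPM, Dmp1 at 887 CPM, Col2a1 at 43940.2 CPM and Col10a1 at 4.93 CPM. The 280 cells had 127 CPM of Col10a1, but 508 of the 545 UMIs were in 1 cell of mutant pup 3. Without that pup the level was 7.14 CPM. The sets of 35, 34 and 27 cells were formed by the limits of the selection and were not tested.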
